A study of Danio rerio with 6 samples.

Results

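The genes described here are the 10 members of the fatty acid binding protein family whose names appear in the transcript tables as *fabp1a*, *fabp1b.1*, *fabp2*, *fabp3*, *fabp6*, *fabp7a*, *fabp7b*, *fabp10a*, *fabp11a* and *fabp11b*, out of 31886 named genes in all. They were chosen by name, with earlier results of these data known, and together carry 14 transcripts. They were sorted by the tissue for which each is known into liver, gut, muscle, neural and adipocyte-type members. RNA-Seq was performed on 6 pools of 10 zebrafish bodies at 3 days post fertilization (dpf), and the question was which genes change when the splicing factor Zrsr2 is lost. All embryos were of strain Tab5, untreated, and had lost their heads to genotyping. The 3 wild-type (WT) pools came from clutches 12, 13 and 15, whose parents were WT fish of the same line. Values are always given in the clutch order 12, 13, 15 for WT and 3, 4, 7 for mutants. The 3 mutant pools held embryos homozygous for the frameshift allele hg129 of *zrsr2* (zrsr2 hg129/hg129) and came from clutches 3, 4 and 7 of heterozygous parents, so their mothers could still supply normal *zrsr2* mRNA. The mutant line carries 1 allele, each clutch supplied pools of a single genotype, and by the study's methods RNA integrity was somewhat better in all WT pools. The genotype therefore cannot be told apart from clutch, parentage or RNA integrity in any comparison here. The p-values take the pool as the unit and judge the difference between groups against the variation between pools.

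Fatty acid binding proteins are small cytosolic proteins folded into a beta barrel that encloses a lipid, usually a long-chain fatty acid or a bile acid. They keep poorly soluble lipids in solution and carry them between membranes, organelles and nuclear receptors, and they belong to one family with the cellular retinol and retinoic acid binding proteins. Many of the protein types are named after a mammalian tissue, and zebrafish often keep a pair of gene copies, a and b, from the duplication of the teleost genome. In zebrafish embryos *fabp10a*, which encodes the liver bile acid binding protein that mammals lack, is the standard marker of hepatocytes, and *fabp2*, the intestinal type, is a standard marker of the differentiating gut.

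The tables gave between 7.505 and 9.26 gigabases of reads on transcripts per pool. The unit used for levels is FPKM (fragments per kilobase of transcript, relative to all mapped fragments of the pool), so levels of different genes can be set side by side per length. FPKM values are printed as deposited. For fold changes they were divided by a scaling factor per pool (1.06 to 1.11 in WT and 0.852 to 0.973 in mutants) and compared as log2(FPKM + 0.1) with limma for the 20018 genes whose mean FPKM reached 0.1. A gene was called when its Benjamini-Hochberg adjusted p over all of these genes was below 0.05 and its absolute log2 fold change was at least 1. *zrsr2*, the targeted gene, had an FPKM of 1.38, 1.495 and 1.39 in WT, compared with 0.513, 0.793 and 1.06 in mutants. It was lower in every mutant pool, without being called (log2 fold change -0.62, adjusted p = 0.173 from limma). Photoreceptor genes summed to 0.146 to 0.29998 FPKM in WT and 0.257 to 0.335 in mutants, 3 of the 8 found being at 0 in all pools. The 9 lens genes summed to 0.796 to 1.11 FPKM in WT and 0.332 to 0.785 in mutants, so that genes of the eye were close to 0 in all of these headless pools.

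Of the 10 family members, 8 passed the filter on low values and *fabp1a* and *fabp11b* did not. Among these 8, *fabp10a* and *fabp2* were called lower in the mutants and 0 were called higher, beside 1.91% of all genes tested that were called lower and 0.889% that were called higher (2.8% in either direction). In 5 of the 8 (*fabp10a*, *fabp1b.1*, *fabp2*, *fabp6* and *fabp3*) every scaled mutant value lay below every scaled WT value, which 16.0% of all genes did, and in 0 of the 8 did every mutant value lie above, which 14.6% of all genes did. The median log2 fold change of the 8 was -0.62 beside 0.01 over all genes tested. The liver member *fabp10a* and the gut members *fabp6* and *fabp2* had the lowest fold changes, the muscle member *fabp3* had an intermediate one that was not called, and the best expressed neural and adipocyte-type members, *fabp7a* and *fabp11a*, had overlapping groups.

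**Figure D1:**
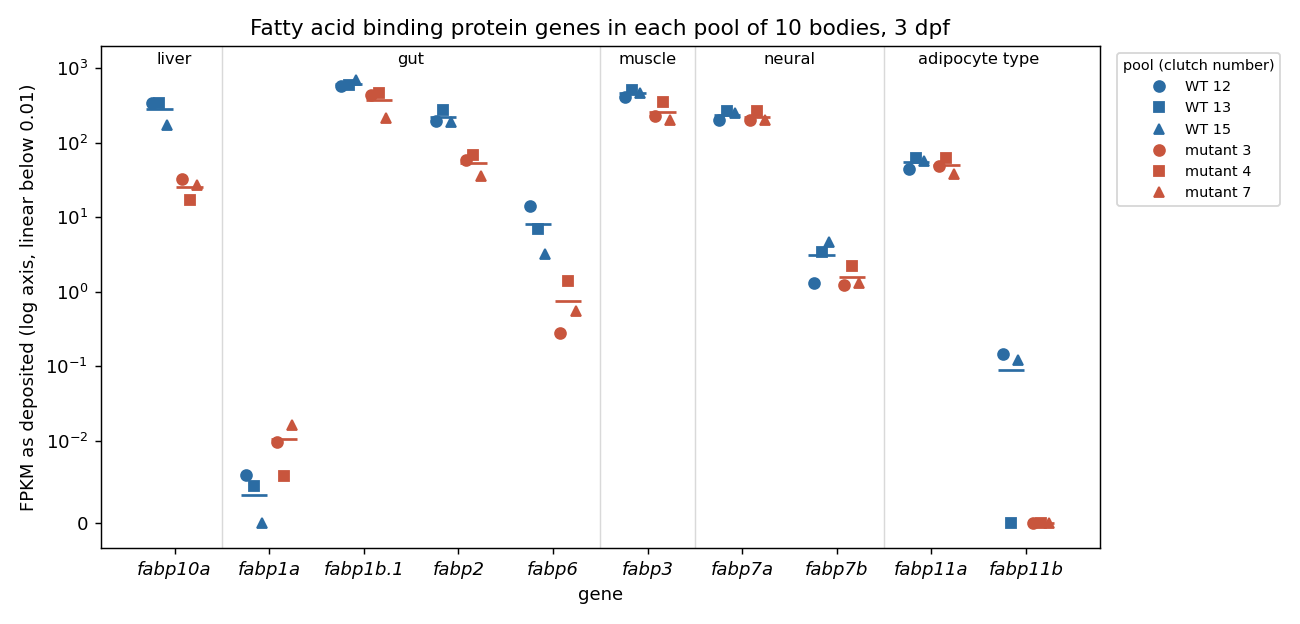
FPKM as deposited of each of the 10 genes (log axis, linear below 0.01) in the 3 WT pools (blue) and 3 mutant pools (red), with a bar at each group mean and the clutch numbers in the key. The mutant points of *fabp10a*, *fabp1b.1*, *fabp2*, *fabp6* and *fabp3* lie below all WT points. Those of *fabp7a*, *fabp7b* and *fabp11a* overlap with the WT points, and *fabp1a* and *fabp11b* are near 0.

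The liver member *fabp10a* lies on the plus strand of chromosome 16 of GRCz11, from 52512025 to 52516915, with 1 transcript of 4 exons and 433 nucleotides. Its FPKM was 345, 341 and 171 in WT, compared with 32.6, 17.1 and 27.5 in mutants. Every mutant pool was far below every WT pool, and the lowest WT pool was still 5.25 times the highest mutant pool. Mean levels were 286 ± 99.3 for WT against 25.7 ± 7.92 for mutants (SD, n = 3 each), and the gene passed from rank 212 to rank 1135 of the 31886 genes by mean FPKM. The log2 fold change was -3.22 (standard error 0.39, 95% interval -4.16 to -2.29, adjusted p = 0.0160 from limma), which is 9.35-fold lower on the scaled values, and 49 of the 20018 genes tested, *fabp10a* included, had a log2 fold change at least as low. The values rested on a mean read depth over the transcript of 1558 to 3824 in WT and 186 to 355 in mutants, so counting error is small beside the spread between clutches. The WT pools themselves differed, clutch 15 having the lowest value and the range spanning 2.01-fold. With any 1 pool omitted the log2 fold change stayed between -3.58 and -2.92, and the gene was no longer called without WT clutch 12 (adjusted p = 0.0714 from limma), WT clutch 13 (0.0768) or mutant clutch 7 (0.0523). In RNA from whole bodies, fewer cells of a type and less RNA per cell cannot be told apart.

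To set *fabp10a* beside other liver genes, 16 hepatocyte genes were taken, most of them for secreted plasma proteins. Their summed FPKM was 2111, 2273 and 1898 in WT, compared with 1268, 1057 and 1058 in mutants, and the groups did not overlap. Of the 16, 2 were called lower and 0 higher, beside 1.91% of all genes called lower. Their median log2 fold change was -0.52. The called genes were *tdo2a*, for the enzyme that opens the ring of tryptophan (log2 fold change -2.97, standard error 0.17, FPKM 12.7 ± 2.41 in WT and 1.29 ± 0.157 in mutants, SD, n = 3 each), and *hpda*, for an enzyme of tyrosine breakdown (-1.73, standard error 0.29). None of the 16 had a log2 fold change as low as *fabp10a*, the highest being 0.25 for the prothrombin gene *f2*. Relative to the sum of the list in the same pool, *fabp10a* had a log2 ratio of -2.61, -2.73 and -3.47 in WT, compared with -5.28, -5.95 and -5.26 in mutants. It was lower in every mutant pool, by a mean of -2.55 or 5.87-fold (two-sided exact permutation test, p = 0.1, which is the lowest value possible with these group sizes, and 0.2 after adjustment over 4 such ratios). This ratio does not depend on scaling between pools, although *tfa*, for transferrin, made up 39.1% of the sum in WT. Against the median of the list in place of its sum the difference was -2.86.

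**Figure D2:**
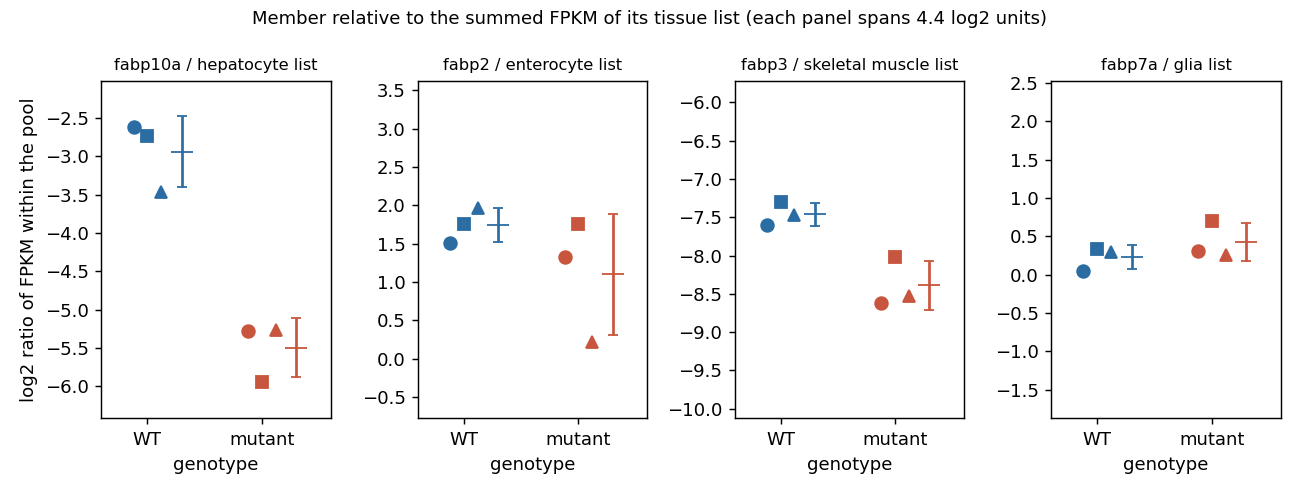
The log2 ratio of the FPKM of a member to the summed FPKM of the gene list of its tissue in the same pool, for WT (blue) and mutant (red) pools, with the mean and SD (n = 3) beside the points. The 3 mutant pools lie below the 3 WT pools for *fabp10a* (-5.26 at most against -3.47 at least) and for *fabp3*, and overlap with them for *fabp2* and *fabp7a*.

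Among the gut members *fabp2* was called. It lies on the plus strand of chromosome 1 from 25848231 to 25851575, and its 4-exon transcript ENSDART00000027973 of 1066 nucleotides carried more than 99.8% of its FPKM in each pool. Its FPKM was 195, 279 and 192 in WT, compared with 58.2, 68.0 and 36.1 in mutants, so that the lowest WT pool had 2.83 times the FPKM of the highest mutant pool. The mean fell from 222 ± 49.3 to 54.1 ± 16.4 (SD, n = 3 each), with a log2 fold change of -1.84 (standard error 0.29, 95% interval -2.52 to -1.15, adjusted p = 0.0280 from limma) or 3.58-fold. The direction held in every fit that left out 1 pool, with log2 fold changes of -1.99 to -1.55, while the call was lost without WT clutch 12 (adjusted p = 0.0980 from limma), WT clutch 13 (0.0998) or WT clutch 15 (0.0693).

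The bile acid binding member of the gut, *fabp6*, also known as gastrotropin or ileal lipid binding protein, varied more than any other tested member. It lies on the plus strand of chromosome 21 from 30043054 to 30047353, with 1 transcript of 4 exons and 508 nucleotides. Its FPKM was 14.3, 7.05 and 3.25 in WT, compared with 0.277, 1.39 and 0.559 in mutants. Every mutant pool lay below every WT pool, but the WT pools spanned 4.39-fold and the mutant pools 5.02-fold. Mean levels were 8.20 ± 5.61 for WT against 0.742 ± 0.579 for mutants (SD, n = 3 each), with a log2 fold change of -3.09 (standard error 0.66, 95% interval -4.68 to -1.504). The adjusted p of 0.0572 from limma missed the threshold, so the gene was not called, although 60 of the 20018 genes tested had a log2 fold change at least as low. It was called with 3 of the other settings. These were a filter at a mean FPKM of 1 (adjusted p = 0.0487 from limma), no scaling (0.0418) and unnamed transcripts added to other genes (0.0279). The filter at 1 was passed through the WT pools, as the mutant mean was 0.742, so that call adds no separate evidence. Over all alternatives the adjusted p of *fabp6* was 0.0279 to 0.163. Its log2 fold change was -3.64 to -2.13 over all alternatives, the smallest change being that with a pseudocount of 1. The read depth over its transcript was 29.6 to 158 in WT and 3.02 to 15.2 in mutants.

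The liver-type gene *fabp1b.1*, expressed in the yolk syncytial layer and the gut of zebrafish embryos, had the highest FPKM of the family and was the 131st of 31886 genes by mean FPKM in WT. It lies on the plus strand of chromosome 8 from 999421 to 1006174, and its transcript has 4 exons and 499 nucleotides. Its FPKM was 583, 590 and 698 in WT, compared with 437, 464 and 214 in mutants. The groups did not overlap, but mutant clutch 7 stood well below the other mutant pools. Mean levels were 624 ± 64.1 for WT against 372 ± 137 for mutants (SD, n = 3 each), with a log2 fold change of -0.60 (95% interval -1.39 to 0.19, adjusted p = 0.329 from limma) that was -0.22 without mutant clutch 7. The 13 lipoprotein genes of yolk and gut, which include *mttp* and apolipoproteins, summed to 9394, 8481 and 11483 FPKM in WT, compared with 10539, 6955 and 6283 in mutants. Mutant clutch 7 was the lowest pool for this list as well, but it was also the lowest for *fabp3* (200 FPKM) and for the summed skeletal muscle genes (73623 FPKM). The part of the yolk in the value of *fabp1b.1* was not tested. The tandem neighbour *fabp1b.2*, which follows downstream on the same strand and whose reads could have been shared with *fabp1b.1*, had an FPKM of 0.821, 1.67 and 1.59 in WT, compared with 3.14, 1.95 and 0.464 in mutants. It was far below *fabp1b.1* in every pool. How shared reads were assigned between these copies was not tested, and the low value of *fabp1b.2* cannot show it.

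The other copy of the liver-type gene, *fabp1a*, was barely detected. Its FPKM was 0.0059, 0.0046 and 0 in WT, compared with 0.0099, 0.0058 and 0.016 in mutants, at a read depth of at most 0.171. A difference between the genotypes was not detectable at this depth. The gene lies on the plus strand of chromosome 5 (72108241 to 72111389) inside the span of *smyd1a*, a muscle gene on the minus strand. By its named transcripts, *smyd1a* was at 3.99 FPKM in mutant clutch 4 and at 28.7 to 38.0 FPKM in the other pools. Unnamed transcripts that overlap it on the minus strand are not part of these values, so a change of the whole gene was not tested. The library kit was stranded, and whether the counting used strand is not given in the sources used here. The log2 ratio of *fabp1a* to *fabp1b.1* was set by the pseudocount and is not read here.

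The gut list, 13 genes found of 14, summed to 68.3, 82.2 and 49.3 FPKM in WT, compared with 23.2, 20.0 and 30.9 in mutants, and the groups did not overlap. Of the 11 genes tested, 3 were called lower and 0 higher, beside 1.91% of all genes called lower. The median log2 fold change of the list was -1.24. Among the called genes were *slc5a1*, for the sodium glucose cotransporter (log2 fold change -1.79, standard error 0.19), and *slc6a19b*, for a neutral amino acid transporter (-1.02, standard error 0.19). Set against the sum of the list, *fabp2* had a log2 ratio of 1.51, 1.76 and 1.96 in WT, compared with 1.32, 1.76 and 0.22 in mutants. The groups overlapped, with a mean difference of -0.64 (two-sided exact permutation test, p = 0.2, adjusted 0.267) that was -0.20 without mutant clutch 7, and the lowest pool was again mutant clutch 7. In WT, *vil1* made up 42.6% of the summed FPKM of the 11 tested genes of the list. Against the median of the list in place of its sum the difference was -0.62 (two-sided exact permutation test, p = 0.6). Both called members were also set against each other within a pool. The log2 ratio of *fabp10a* to *fabp2* was 0.82, 0.29 and -0.17 in WT, compared with -0.84, -1.99 and -0.39 in mutants, lower in every mutant pool by a mean of -1.39 (two-sided exact permutation test, p = 0.1, and 0.2 after adjustment over 4 ratios of members). Over the alternatives this difference was -1.73 to -0.93.

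**Figure D3:**
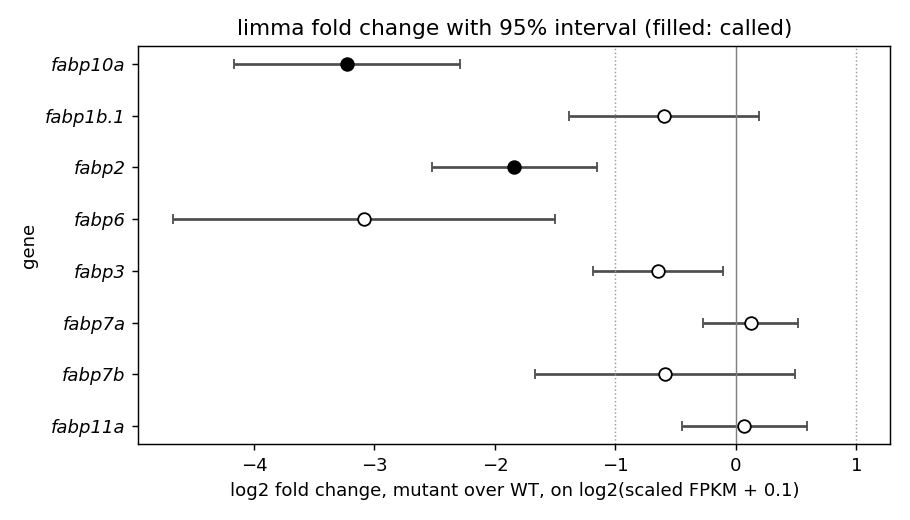
The limma log2 fold change of mutant over WT, on log2(scaled FPKM + 0.1), for the 8 tested members with its 95% interval (n = 3 pools per genotype). Filled points mark *fabp10a* and *fabp2*, the called genes, and dotted lines mark a log2 fold change of -1 and 1. The widest interval is that of *fabp6*, from -4.68 to -1.504.

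The muscle member *fabp3*, the heart type, which supplies fatty acids to mitochondria in heart and skeletal muscle, was the second most abundant of the family in WT. Its named transcripts span 42955280 to 42993306 on the plus strand of chromosome 19, and the minus-strand gene CU207343.2 (42962095 to 42983687) overlaps this span. Transcript ENSDART00000033724 of 781 nucleotides, which starts at 42983613, carried more than 99.8% of the FPKM of *fabp3* in each pool. Its FPKM was 416, 514 and 465 in WT, compared with 227, 356 and 200 in mutants, with every mutant value under the lowest WT value. Mean levels were 465 ± 49.0 for WT against 261 ± 83.3 for mutants (SD, n = 3 each). Its log2 fold change was -0.65 (standard error 0.22, 95% interval -1.19 to -0.11, unadjusted p = 0.0258 and adjusted p = 0.158 from limma), which is not a call. It was -0.87 to -0.45 over all alternatives.

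Skeletal muscle genes were set beside *fabp3*. The 14 genes found of 15 summed to 80917 to 82492 FPKM in WT and to 73623 to 92420 FPKM in mutants. Of the 14, 0 were called, beside 2.8% of all genes in either direction, so a list this short cannot be set apart by that count. Their median log2 fold change was 0.40 beside 0.01 over all genes, and 2 of the 14 were below 0, beside 49.2% of all genes. None of the 14 had a log2 fold change as low as *fabp3*, the lowest being -0.09 for the parvalbumin gene *pvalb2*. Relative to their sum, *fabp3* had a log2 ratio of -7.60, -7.30 and -7.47 in WT, compared with -8.62, -8.02 and -8.52 in mutants. It was lower in every mutant pool, by a mean of -0.93 or 1.90-fold (two-sided exact permutation test, p = 0.1, and 0.2 after adjustment over 4 ratios). The difference was -1.11 to -0.81 over the alternatives. Which tissues of these bodies supplied the RNA of *fabp3* was not tested. The 6 cardiac genes found of 7 summed to 33.7 to 59.2 FPKM in WT and 33.8 to 50.5 FPKM in mutants, overlapping. Of these, 0 were called, beside 2.8% of all genes, and their median log2 fold change was 0.41.

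The neural member *fabp7a*, the brain type and a marker of radial glia, was the best expressed member without a lower mutant group. It lies on the plus strand of chromosome 17 from 15433518 to 15435887, and its 4-exon transcript ENSDART00000026180 of 710 nucleotides carried more than 99.8% of its FPKM in each pool. Its FPKM was 200, 264 and 251 in WT, compared with 201, 266 and 201 in mutants. The groups overlapped almost wholly, with means of 238 ± 33.9 and 223 ± 37.9 (SD, n = 3 each). On the log2 scale the difference was 0.12, with a standard error of 0.16 and a 95% interval of -0.27 to 0.52 (adjusted p = 0.686 from limma), and its sign changed without scaling (-0.10). Its paralogue *fabp7b*, on the minus strand of chromosome 20 (40369257 to 40370736), had an FPKM of 1.30, 3.39 and 4.60 in WT, compared with 1.23, 2.196 and 1.33 in mutants. WT clutch 12 lay among the mutant values, and the log2 fold change of -0.59 (95% interval -1.66 to 0.49, adjusted p = 0.477 from limma) was not called. It was -1.08 without WT clutch 12 and -0.24 without WT clutch 15, and was called in neither case. The log2 ratio of *fabp7a* to *fabp7b* was 7.16, 6.24 and 5.74 in WT, compared with 7.23, 6.86 and 7.14 in mutants, with overlapping groups and a mean difference of 0.70 (two-sided exact permutation test, p = 0.3). That difference was 0.38 without WT clutch 15 and 1.09 without WT clutch 12, where the groups no longer overlapped (exact permutation test, p = 0.2, the lowest possible with 1 pool fewer).

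Glial genes were set beside *fabp7a*. As deposited, the 14 genes summed to 193 to 209 FPKM in WT and 163 to 168 in mutants. These groups did not overlap, but they did after scaling. Of the 14, 0 were called, beside 2.8% of all genes, with a median log2 fold change of -0.11. The log2 ratio of *fabp7a* to this sum was 0.048, 0.34 and 0.30 in WT, compared with 0.31, 0.71 and 0.26 in mutants, with overlapping groups (two-sided exact permutation test, p = 0.5). The mean difference was 0.19, and it was 0.052 without mutant clutch 4 and 0.10 without WT clutch 12, the highest with 1 pool left out being 0.28. With the median of the list in place of its sum it was 0.54, at the lowest p the design allows (exact permutation test, p = 0.1), so the overlap depends on how the list is summarised. The 12 neuronal genes summed to 120 to 151 FPKM in WT and 120 to 134 in mutants. Of these, 0 were called, beside 2.8% of all genes, and their median log2 fold change was 0.11.

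The adipocyte-type members are named *fabp11a* and *fabp11b* in the tables and *fabp4a* and *fabp4b* in RefSeq, and belong to the branch that holds the mammalian adipocyte and epidermal proteins. On chromosome 19, *fabp11a* (plus strand, 32166702 to 32169161) had an FPKM of 44.7, 62.0 and 57.6 in WT, compared with 48.2, 63.0 and 38.0 in mutants. The highest and the lowest value were both in mutant pools. The log2 fold change was 0.068 (standard error 0.22, 95% interval -0.45 to 0.59, adjusted p = 0.875 from limma), and its sign changed with the scaling, being -0.16 without it, and with the pools used, being -0.06 without WT clutch 12 and -0.078 without mutant clutch 4. *fabp11b*, on the minus strand of chromosome 16 (16148761 to 16152199), had an FPKM of 0.144, 0 and 0.119 in the WT pools and is listed at 0 in all 3 mutant pools. As its read depth was at most 1.59 and WT clutch 13 was also at 0, no difference was detectable at this depth. The 8 endothelial genes summed to 21.6 to 22.1 FPKM in WT and to 22.7 to 26.5 FPKM in mutants. Of these, 0 were called, beside 2.8% of all genes, and their median log2 fold change was 0.29.

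All 10 members together had 1799, 2061 and 1843 FPKM in WT, compared with 1006, 1238 and 718 FPKM in mutants. The share of *fabp10a* was 9.28% to 19.2% in WT and 1.38% to 3.83% in mutants, and that of *fabp2* was 10.4% to 13.5% and 5.03% to 5.79%. The share of *fabp7a*, whose own FPKM overlapped between the genotypes, was 11.1% to 13.6% in WT and 20.0% to 28.0% in mutants. The shares of *fabp1b.1* (28.6% to 37.9% in WT, 29.8% to 43.5% in mutants) and *fabp3* (23.1% to 25.2% in WT, 22.6% to 28.8% in mutants) overlapped. The shares of a pool sum to 100%, so a lower share of some members raises that of the others.

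**Figure D4:**
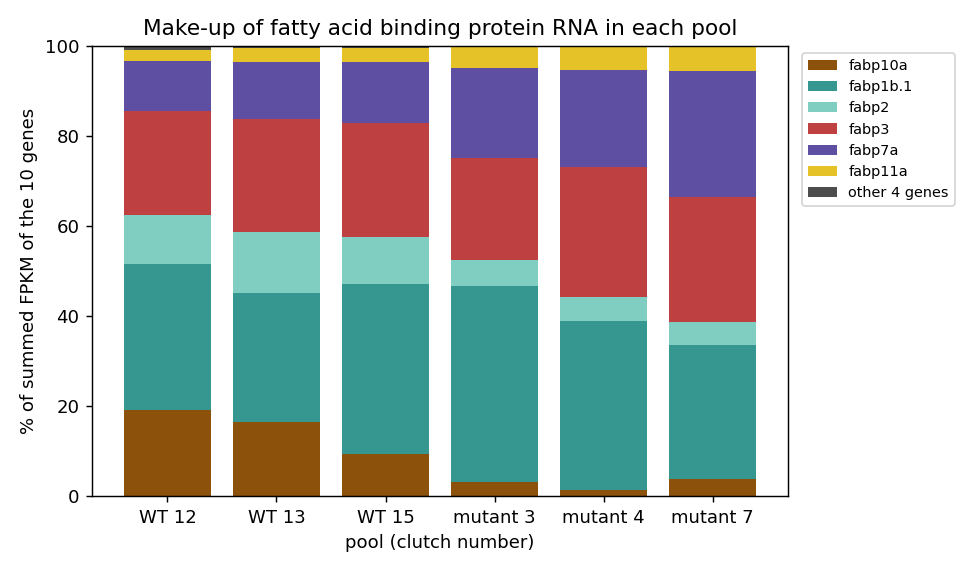
The share of each member in the summed FPKM of the 10 genes, in percent, for each of the 6 pools (bars named by genotype and clutch). The share of *fabp10a* is 9.28% to 19.2% in the WT bars and 1.38% to 3.83% in the mutant bars, while that of *fabp7a* is 11.1% to 13.6% and 20.0% to 28.0%.

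Clutches of the same genotype differed in these genes by unequal amounts. On the log2 scale the SD within genotype was 1.0101 for *fabp6*, 0.67 for *fabp7b*, 0.59 for *fabp10a*, 0.48 for *fabp1b.1* and 0.42 for *fabp2*, and 0.19 to 0.30 for *fabp7a*, *fabp11a* and *fabp3*, beside a median of 0.28 over all genes tested. In WT the order of clutches 12, 13 and 15 was not shared by the members, clutch 12 being highest for *fabp10a* and *fabp6*, clutch 13 for *fabp2*, *fabp3*, *fabp7a* and *fabp11a*, and clutch 15 for *fabp1b.1* and *fabp7b*.

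The genes whose pattern over the 6 pools was most like that of *fabp10a* were *shbg* (root mean square difference 0.28 on the mean-centred log2 scale), *endou* (0.32) and *serpinf2a* (0.32), among 11792 genes whose mean FPKM reached 1. Their log2 fold changes were -3.11, -3.19 and -3.48 in this order, beside -3.22 for *fabp10a*. The FPKM of *shbg*, for sex hormone binding globulin, was 8.18, 13.3 and 5.66 in WT, compared with 0.954, 0.404 and 1.098 in mutants. As in *fabp10a*, WT clutch 15 was the lowest WT pool and mutant clutch 4 the lowest mutant pool. For *fabp2* the most alike genes were *ptgdsa* (0.13), *emp3b* (0.15) and *SLC46A3* (0.15). *ptgdsa*, for a prostaglandin D synthase, had an FPKM of 6.66, 7.70 and 6.88 in WT, compared with 1.89, 2.12 and 1.21 in mutants, with clutch 7 the lowest as in *fabp2*. With 6 pools in groups this far apart, likeness mostly restates the difference between genotypes.

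The relatives of the family that bind retinol or retinoic acid, with *fabp1b.2* and *fabp10b*, held 0 called genes among the 11 tested, beside 2.8% of all genes. Their median log2 fold change was 0.20. The intestinal retinol binding gene *rbp2a* had an FPKM of 250, 549 and 329 in WT, compared with 123, 150 and 76.1 in mutants (log2 fold change -1.44, adjusted p = 0.0825 from limma). *rbp2b* had means of 97.1 ± 21.9 and 43.3 ± 8.28 FPKM (SD, n = 3 each), and differed by -0.93 on the log2 scale (limma adjusted p = 0.0750). These genes are named after their values were seen, because *rbp2a* and *rbp2b* are the relatives with the lowest fold changes.

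Genes that act before and after the binding proteins were counted in the same fit, against 1.91% of all genes called lower. Among genes of fatty acid uptake and activation, 0 of 18 tested were called, with a median log2 fold change of -0.07. Among 14 genes of triglyceride and lipoprotein assembly, 2 were called lower and 0 higher (median -0.62). These were *dgat2*, for an enzyme of the last step of triglyceride synthesis (log2 fold change -2.18, standard error 0.33), and *mttp*, for the protein that loads lipid onto apolipoprotein B (-1.91, standard error 0.18, FPKM 19.2 ± 2.93 in WT and 4.31 ± 0.483 in mutants, SD, n = 3 each). *mttp* was also the 1 called gene among the 13 of the yolk and gut lipoprotein list, whose median was -0.42. Of 19 tested genes of fatty acid oxidation, 18 had a log2 fold change below 0 (49.2% of all genes did), with a median of -0.20, and 1 was called lower and 0 higher. Of 17 tested nuclear receptors and coactivators of lipid metabolism, *hnf4a*, a regulator of liver and gut genes, was called (-1.02, standard error 0.19, median of the list -0.20). Of 7 tested bile acid transporters 2 were called lower, *slc51a*, for a subunit of the basolateral exporter (-1.70, standard error 0.32), and *slco1d1* (-1.104, standard error 0.17), with a median of -0.997. The 9 exocrine pancreas genes were all called lower, *prss59.1*, *ela2l*, *cel.1* and *ela2* having the lowest fold changes, and their median was -5.41.

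**Figure D5:**
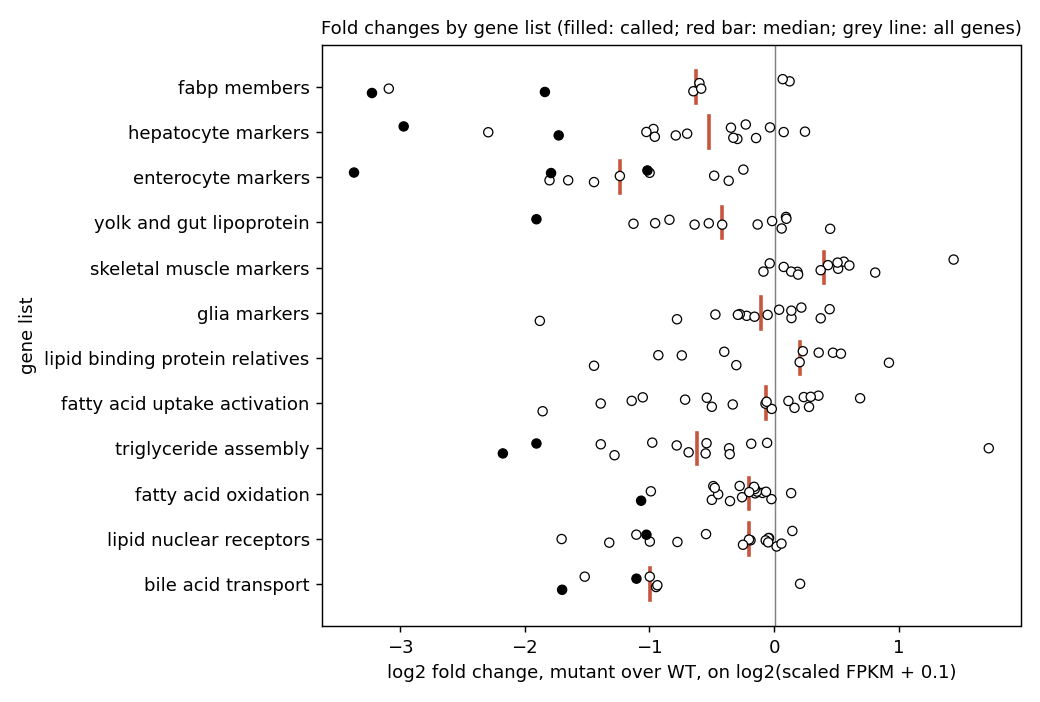
The limma log2 fold change of mutant over WT for each tested gene of the family and of 11 gene lists (points, filled where called), with the median of each list (red bar) and of all genes (grey line). The lowest member is *fabp10a* at -3.22, the enterocyte list has a median of -1.24, and the skeletal muscle list has a median of 0.40.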

How the data were processed

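The data are RNA-Seq of 6 pools, 3 WT and 3 mutant, grouped by the genotype in the sample labels and named by clutch. Alignment of the filtered reads was by HISAT2 2.2.1.0 with GRCz11 as the reference, and transcripts were estimated with StringTie 2.0.3, per the submitters' processing notes and methods, which name a stranded total RNA kit. The authors deposited FPKM as StringTie gave it, and they deposited coverage, a signal of mean read depth per transcript, with no scaling. Read counts were not analysed here.

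FPKM was summed over all transcripts that share a gene name, and 91 names on several chromosomes were kept apart by chromosome. Median-of-ratios factors, log2(FPKM + 0.1), a filter at a mean FPKM of 0.1 and limma 3.58.1 in R 4.3.3 (mean trend, two-sided, Benjamini-Hochberg) gave the fold changes. Ratios within a pool were compared with exact permutation tests (scipy 1.17.1, Python 3.11.15). Of the 17506 unnamed transcripts, 0 overlapped a member on its strand, while 12672 overlapped another named gene on its strand. Except in the alternative with unnamed transcripts added, these were left out of the values of that gene and of the gene lists. Unnamed transcripts held 23.0% to 29.2% of the read bases on transcripts of a pool. The counts of list genes called are therefore for named transcripts only. RefSeq symbols matched 8 members and RefSeq synonyms 2. The limma fit was tested on simulated data. Named are all members, up to 4 called genes per list, the 3 genes most like each called member, and others where stated, and some genes that meet this rule are not reported here. Members and lists were chosen with earlier results of these data known. Alternatives were other pseudocounts, filters and scalings, limma-voom on reads estimated from coverage, robust eBayes, unnamed transcripts added, the median of a list in place of its sum, and each pool left out.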

Additional observations from a re-analysis of the deposited data

How the results depend on the processing

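The number of genes called was 561 (178 higher, 383 lower). It was 283 with a pseudocount of 1, 906 without scaling (132 higher, 774 lower), 934 with unnamed transcripts added, and 92 to 510 with 1 pool left out, the fewest without WT clutch 12. With TPM in place of scaling 121 were higher and 569 lower. The median over all genes was 0.01 on the log2 scale and -0.19 without scaling, and *fabp7a* and *fabp11a* stayed above it in both. The number of members called lower, 2 in the main result, was 0 to 2 with 1 pool left out. It was 0 without WT clutch 12 or WT clutch 13 and 1 without WT clutch 15 or mutant clutch 7, where fewer pools were fitted. Over all 15 alternatives *fabp10a* stayed between -3.58 and -2.92 and *fabp2* between -2.06 and -1.55 on the log2 scale, and each was called in 12.

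The sign of *fabp7a* changed to -0.10 without scaling and -0.043 with TPM. That of *fabp11a* changed to -0.16 and -0.098 under the same settings, and its fold change was -0.078 to 0.27 with 1 pool left out. The log2 ratio of *fabp11a* to *fabp11b* was 0.65 higher in mutants, and -0.034 with a pseudocount of 1, since *fabp11b* is near 0. No other member fold change or ratio, and no transcript share, changed sign under the alternatives run, though the share of a minor *fabp7a* transcript seen only in WT clutch 13 had no difference left without that pool. No paired analysis was possible because the genotypes share no clutch number. Depth limits *fabp1a*, *fabp11b* and, in the mutants, *fabp6*.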
